A study of Mus musculus with 17 samples.

Results

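The interneuron marker genes measured here were 10 genes that mark GABAergic interneurons and their subclasses, namely Gad1, Gad2, Slc32a1, Sst, Pvalb, Vip, Npy, Cck, Reln and Lhx6. They were listed by name for their known roles, with no threshold on a measured value, and were 10 of the 38355 gene identifiers counted. Polyadenylated RNA from hand-dissected hippocampus of untreated wild type C57BL/6J mice was sequenced in 17 libraries. The single-end experiment compared 5 libraries from mice aged 3 months (3M) with 6 libraries from mice aged 24 months (24M). The paired-end experiment compared 3 libraries from mice aged 3 months with 3 libraries from mice aged 29 months (29M). The question of each comparison was whether expression of these genes differed between young and aged hippocampus. Library type and aged group varied together, and the 3M libraries of the same experiment served as controls for each aged group. The labels do not say whether the libraries of a group came from separate animals, and p-values therefore measure the spread between libraries, which may be partly technical.

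Interneurons release GABA, which Gad1 and Gad2 (the glutamate decarboxylases GAD67 and GAD65) make from glutamate and which Slc32a1 (the vesicular transporter VGAT) loads into synaptic vesicles. Subclasses of hippocampal interneurons are told apart by a calcium-binding protein (Pvalb), by neuropeptides (Sst, Vip, Npy, Cck) and by the secreted glycoprotein reelin (Reln). Lhx6 is a transcription factor of interneurons born in the medial ganglionic eminence, a group that includes most Pvalb and Sst cells. Cck is also transcribed in pyramidal cells, and Reln also in Cajal-Retzius cells.

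The interneuron marker genes showed small age effects, the largest being Slc32a1, which fell by 23.4% at 24M. Expression is given as CPM, a gene's count relative to the library's total after TMM scaling. None of the 10 genes met the rule for a called gene in edgeR's quasi-likelihood test, which asked for adjusted p ≤ 0.05 and a log2 fold change ≥ 0.5 in either direction. Over all genes tested, 310 of 15683 (1.98%) were called at 24M and 219 of 15097 (1.45%) at 29M. By the adjusted p alone, 2 of the 10 genes were lower at 24M (Slc32a1 and Cck) and 1 was lower at 29M (Reln). By that rule, 5.58% of all genes passed at 24M, 2.37% in the downward direction, and 2.99% passed at 29M, 0.662% downward. At an unadjusted p under 0.05 there were 3 of 10 interneuron genes at each age, against 26.1% of all genes at 24M and 17.35% at 29M. DESeq2 also called 0 of the 10 at each age, with 3 past the adjusted p alone at 24M and 1 at 29M. Over all genes DESeq2 called 385 at 24M and 150 at 29M, and 1592 and 306 passed its adjusted p alone. The tissue was whole hippocampus, so fewer cells of a type and less RNA per cell cannot be told apart in any of these values.

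**Figure D1:**
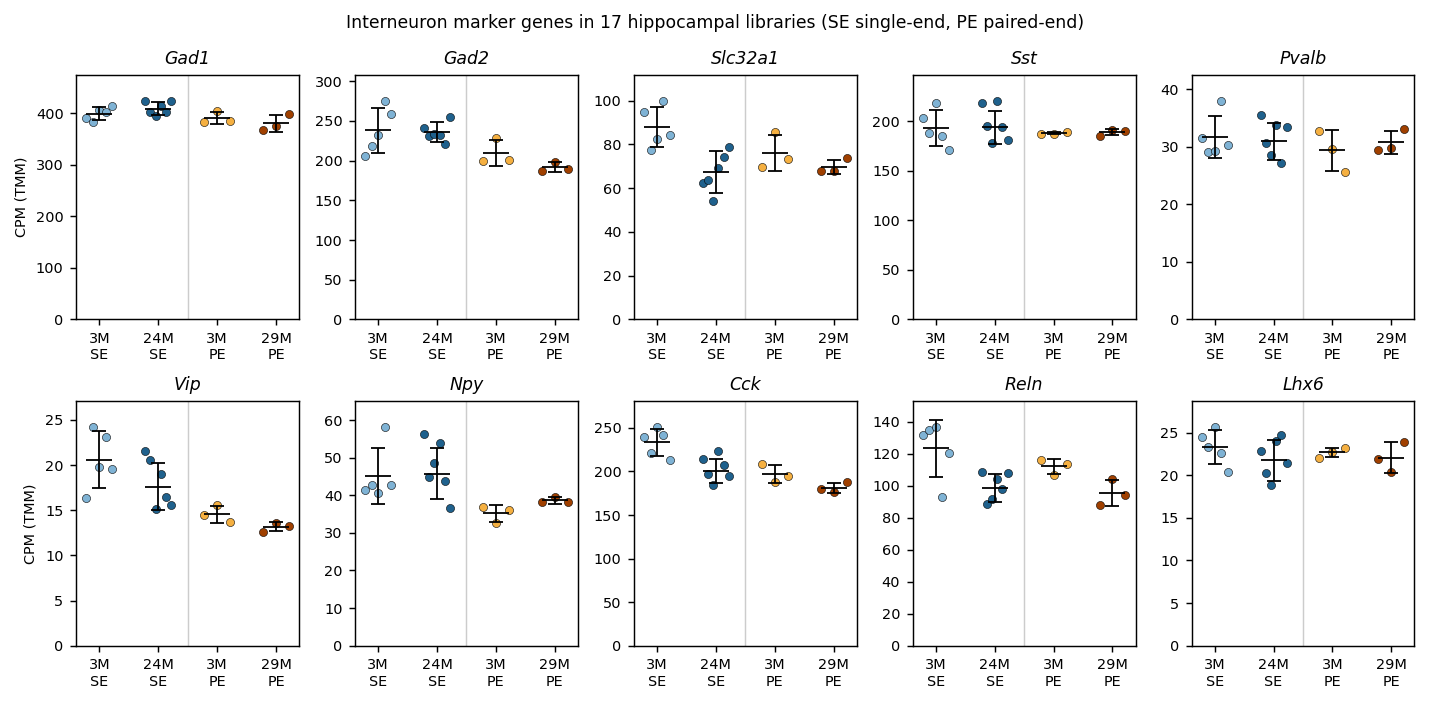
CPM (TMM-scaled, y axis from 0) of the 10 interneuron marker genes in each of the 17 libraries, grouped by age and library type. Points are libraries, and the horizontal bar with whiskers is the mean ± SD with 24M replicates 1 and 4 counted as 1 sample. The groups of each gene lie at similar heights, and the 24M libraries of Slc32a1 lie from 54.0 to 78.9 CPM against 77.6 to 99.97 CPM at 3M.

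In the single-end experiment, libraries held 19144461 to 28438296 counts on genes at 3M and 9213474 to 19756411 at 24M. Paired-end libraries held 10977976 to 15054972 at 3M and 10991389 to 13563541 at 29M. The interneuron genes were well sampled at this depth, from 143 counts for Vip in its lowest library to 11498 for Gad1 in its highest. Replicates 1 and 4 of the 24M group differed by less than counting noise, with a variance ratio of 0.41 over 2671 genes, whereas the next lowest of 136 pairs of libraries was at 1.23. They were counted as 1 sample. Replicate 4 of the 3M single-end group stood apart in the summed level of 11 striatal neuron markers, 637 CPM against 280 to 355 CPM in the other 3M single-end libraries, and results that rest on it are given below with and without it. All 9 markers of hippocampal and other principal neurons were present in every library, with summed levels of 7389 to 9150 CPM.

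Compared per kilobase of exon (RPKM), the neuropeptide genes Sst, Cck and Npy led, while Vip was among the lowest. The length is that of all annotated exons merged, from 566 bases for Npy to 23738 for Reln. Lengths of the transcripts present were not measured, and the order between genes depends on them. Sst (ENSMUSG00000004366, chr16:23889573-23890958, minus strand of GRCm38) had the highest mean level of the 10 genes in every group, 261 to 269 RPKM. Cck (ENSMUSG00000032532, chr9:121489824-121495694, minus strand) came next at 139 to 179 RPKM, followed by Npy (ENSMUSG00000029819, chr6:49822710-49829507, plus strand) at 62.2 to 80.9 RPKM. The libraries of these neighbours in the order did not overlap in any group. All positions are those of the whole gene in the GENCODE M21 annotation of GRCm38. The GABA synthesis genes came next, with Gad1 (ENSMUSG00000070880, chr2:70553072-70602014, plus strand) at 49.8 to 53.4 RPKM above Gad2 (ENSMUSG00000026787, chr2:22622205-22693874, plus strand) at 32.6 to 40.5 RPKM, again without overlap in any group. Slc32a1 (ENSMUSG00000037771, chr2:158610767-158615748, plus strand) had 24.1 to 31.4 RPKM. Pvalb (ENSMUSG00000005716, chr15:78191114-78206400, minus strand) had 28.2 to 30.4 RPKM and exchanged places with Slc32a1, which was sixth in the 3M single-end group and seventh in the others. Their ranges overlapped in every group except at 29M.

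The 3 lowest levels, all between 3.87 and 6.06 RPKM as group means, belonged to Vip (ENSMUSG00000019772, chr10:5639218-5647617, plus strand), Reln (ENSMUSG00000042453, chr5:21884454-22344702, minus strand) and Lhx6 (ENSMUSG00000026890, chr2:36081953-36105408, minus strand). Neighbours among these 3 overlapped in every group except Lhx6 and Vip in the 3M paired-end libraries. Vip ranked eighth in the single-end groups and last in the paired-end groups. The single-end and paired-end groups were scaled separately, so levels are compared within an experiment only. Antisense and pseudogene models lie inside Gad1, Slc32a1 and Reln, and none of those counted had more than 9 counts in any library.

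Promoter sequence is shown for the genes whose adjusted p passed at either age (Slc32a1, Cck and Reln) and for those with a searched motif close to the start site (Sst and Vip). Each line gives 90 bases directly upstream of the RefSeq transcript start in GRCm38.p6, read 5′ to 3′ on the strand of the gene, with motif matches in capitals. The stretches are chr2:158610668-158610757 (plus), chr9:121495695-121495784 (minus), chr5:22344706-22344795 (minus), chr16:23890845-23890934 (minus) and chr10:5639128-5639217 (plus), in the order printed. The RefSeq start of Sst lies inside the gene as GENCODE draws it.
Slc32a1: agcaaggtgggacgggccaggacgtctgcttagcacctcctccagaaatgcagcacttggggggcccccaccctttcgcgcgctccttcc
Cck: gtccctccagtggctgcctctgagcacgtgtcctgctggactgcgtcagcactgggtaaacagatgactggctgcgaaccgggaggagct
Reln: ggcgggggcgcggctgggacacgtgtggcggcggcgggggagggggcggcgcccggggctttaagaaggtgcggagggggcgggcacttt
Sst: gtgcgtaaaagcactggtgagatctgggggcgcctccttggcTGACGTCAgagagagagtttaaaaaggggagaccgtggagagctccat
Vip: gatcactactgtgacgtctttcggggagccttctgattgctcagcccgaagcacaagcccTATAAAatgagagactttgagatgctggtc

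On both strands of 250 bases upstream of each start, 3 motifs were searched. The cyclic AMP response element TGACGTCA was in 508 of 32851 promoters (1.55%) and, among the interneuron genes, in Sst alone, from base -48 to -41. The TATA box TATAAA was in 12.4% of promoters and in Vip, where its nearest match ran from base -30 to -25, and it occurred on the opposite strand of Gad1 from base -141 to -136. The homeodomain core TAATTA was in 4.84% of promoters and in none of these genes, which says only that the letters are not in this window. GC content of the 250 bases ranged from 38.4% in Vip to 80.0% in Reln. A match is a description of the sequence and was not tested as a binding site.

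Among the genes of GABA synthesis and transport, Slc32a1 had the largest difference at 24M. Its level in the 5 libraries at 3M was 94.6, 77.6, 82.6, 99.97 and 84.5 CPM, and in the 6 libraries at 24M it was 62.5, 64.0, 54.0, 69.4, 74.4 and 78.9 CPM. The highest 24M library lay just above the lowest 3M library, and the groups were otherwise apart. Means were 87.9 ± 9.19 CPM (SD, n = 5) in young and 67.4 ± 9.67 CPM (SD, n = 5) in aged samples, with a log2 fold change of -0.39 (SE 0.096, 95% interval -0.59 to -0.18, adjusted p = 0.0367 by edgeR). Expression fell by 23.4%, short of the fold rule. Leaving out each library in turn kept the log2 fold change between -0.44 and -0.32, with an adjusted p from 0.0199 to 0.103 that stayed at or under 0.05 in 7 of 11 fits. The libraries whose removal took it past 0.05 were 3M replicates 1 (0.0855) and 4 (0.0758) and 24M replicates 2 (0.103) and 3 (0.0622).

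In the paired-end experiment Slc32a1 was at 69.7, 85.5 and 73.2 CPM at 3M and at 68.0, 67.8 and 73.6 CPM at 29M. These groups overlapped, and the log2 fold change was -0.13 (95% interval -0.28 to 0.026, edgeR adjusted p = 0.389). The difference between both age effects on Slc32a1 was 0.26 (95% interval -0.054 to 0.57, edgeR adjusted p = 0.552), the largest such difference among the 10 genes in absolute size. An effect at 24M alone is therefore not shown by these data.

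Neither glutamate decarboxylase gene passed the test at either age. Gad1 was at 391, 382, 406, 401 and 413 CPM at 3M and at 423, 402, 395, 414, 402 and 424 CPM at 24M. The 24M libraries lay within or just above the 3M range, and the log2 fold change was 0.033 with a 95% interval of -0.053 to 0.12. In the paired-end libraries Gad1 was at 383, 404 and 384 CPM at 3M and at 366, 376 and 398 CPM at 29M, overlapping. Its log2 fold change here was -0.038 with an interval of -0.13 to 0.051. Gad1 also had a low spread between libraries, with a coefficient of variation of 3.02% to 4.28% in the 4 groups.

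Gad2 varied more, from 206 to 275 CPM (median 232) over the 5 libraries at 3M and from 221 to 256 CPM at 24M. The highest of these values was that of 3M single-end replicate 4, and the log2 fold change was -0.016 (95% interval -0.17 to 0.14). Without that library it was 0.042. At 29M Gad2 was at 187, 199 and 189 CPM against 200, 229 and 201 CPM at 3M. Every 29M library was below every 3M library, and the log2 fold change of -0.13 (95% interval -0.24 to -0.025) did not pass the adjustment by edgeR (adjusted p = 0.189).

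Among the neuropeptide genes, Cck was lower at 24M and the others did not pass at either age. Cck, the cholecystokinin gene, was at 239, 222, 251, 241 and 213 CPM at 3M and at 214, 197, 184, 224, 208 and 195 CPM at 24M. The 24M libraries from 184 to 208 CPM were below the whole 3M range, and the remaining ones were inside it. The log2 fold change of -0.22 (SE 0.058, 95% interval -0.34 to -0.093, edgeR adjusted p = 0.0459) means that Cck fell by 14.1%. This call was near the threshold, and the adjusted p was at or under 0.05 in 2 of the 11 fits that left out a library (without 3M replicate 5, 0.0121, and without 24M replicate 4, 0.0336) and reached 0.117 without 24M replicate 2. At 29M Cck was at 180.4, 176 and 188 CPM against 208, 189 and 195 CPM at 3M, without overlap, and its log2 fold change of -0.12 (95% interval -0.21 to -0.030) had an adjusted p of 0.155 in edgeR.

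Sst, the somatostatin gene, showed the smallest age effects. It was at 203, 189, 219, 185 and 171 CPM at 3M and at 219, 196, 178, 221, 195 and 181 CPM at 24M, with overlapping groups and a log2 fold change of 0.0032 (95% interval -0.15 to 0.16). In the paired-end libraries Sst was at 188, 187 and 189 CPM in young and at 186, 192 and 190.4 CPM in aged mice. Here the log2 fold change was 0.0093 with a 95% interval of -0.061 to 0.079. The interval bounds a change at 29M to between -4.13% and 5.65%, the narrowest of the 10 genes.

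Npy, the neuropeptide Y gene, was at 41.4, 42.8, 40.5, 58.1 and 42.7 CPM at 3M and at 56.3, 44.8, 48.6, 54.0, 43.8 and 36.7 CPM at 24M. The 3M values were close together apart from replicate 4, the library with high striatal markers. The log2 fold change was 0.028 (95% interval -0.22 to 0.27) with that library and 0.14 without it (adjusted p = 0.390 by edgeR). At 29M Npy was at 38.1, 39.7 and 38.2 CPM against 36.9, 32.7 and 36.2 CPM at 3M. All 29M libraries were above all 3M libraries, and the log2 fold change of 0.14 (95% interval -0.0051 to 0.28) had an edgeR adjusted p of 0.307.

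Vip, the gene of vasoactive intestinal peptide, had the lowest level per length of the peptide genes. It was at 16.4, 24.2, 19.8, 23.1 and 19.6 CPM at 3M and at 21.5, 20.6, 15.2, 19.1, 16.5 and 15.6 CPM at 24M. The groups overlapped over most of their range, and the log2 fold change was -0.23 (95% interval -0.48 to 0.027, edgeR adjusted p = 0.243). At 29M Vip was at 12.6, 13.6 and 13.2 CPM against 14.4, 15.6 and 13.7 CPM at 3M. The 29M libraries were all below the 3M libraries by a narrow margin, with a log2 fold change of -0.15 (95% interval -0.35 to 0.042, edgeR adjusted p = 0.415).

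Reln had a negative fold change at both ages, and the one at 29M passed the adjusted p. At 29M it was at 87.9, 104 and 94.4 CPM against 116, 107 and 114 CPM at 3M. All 29M libraries were below all 3M libraries, and the log2 fold change was -0.23 (SE 0.057, 95% interval -0.36 to -0.11, edgeR adjusted p = 0.0426), so that expression fell by 14.99%. Leaving out each of the 6 libraries in turn gave -0.30 to -0.18, with an adjusted p from 0.0108 to 0.221. It stayed under 0.05 only without 29M replicate 2, and the highest of these values was that without 29M replicate 1.

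In the single-end experiment Reln was at 132, 135, 137, 92.9 and 121 CPM at 3M and at 108, 88.5, 92.0, 105, 97.9 and 108 CPM at 24M. Replicate 4 at 3M was the low value and lay inside the 24M range, whereas the other 3M libraries were above every 24M library. The log2 fold change was -0.33 (SE 0.096, 95% interval -0.53 to -0.12), and its edgeR adjusted p of 0.0608 missed the threshold. Without 3M replicate 4 it was -0.41 with an edgeR adjusted p of 0.00762. Without 3M replicate 5 the adjusted p was 0.0427, and in the other 9 fits that left out a library it ranged up to 0.156.

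Pvalb, the parvalbumin gene of fast-spiking interneurons, did not differ beyond the spread at either age. It was at 31.6, 29.1, 29.3, 38.0 and 30.2 CPM at 3M and at 35.5, 30.7, 28.6, 33.8, 27.2 and 33.4 CPM at 24M. The groups overlapped, and the log2 fold change was -0.037 (95% interval -0.23 to 0.15). In the paired-end libraries it was at 32.8, 29.6 and 25.6 CPM at 3M and at 29.4, 29.8 and 33.1 CPM at 29M, and these overlapped too. Here the log2 fold change was 0.070 (95% interval -0.12 to 0.26).

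Lhx6 likewise did not differ beyond the spread. It was at 24.5, 23.3, 25.7, 22.6 and 20.4 CPM at 3M and at 22.9, 20.3, 18.8, 24.1, 24.8 and 21.4 CPM at 24M, with overlapping groups and a log2 fold change of -0.099 (95% interval -0.29 to 0.087). In the paired-end libraries it was at 22.1, 22.8 and 23.2 CPM at 3M and at 21.95, 20.4 and 23.9 CPM at 29M. These groups overlapped, and the log2 fold change was -0.034 (95% interval -0.20 to 0.13).

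**Figure D2:**
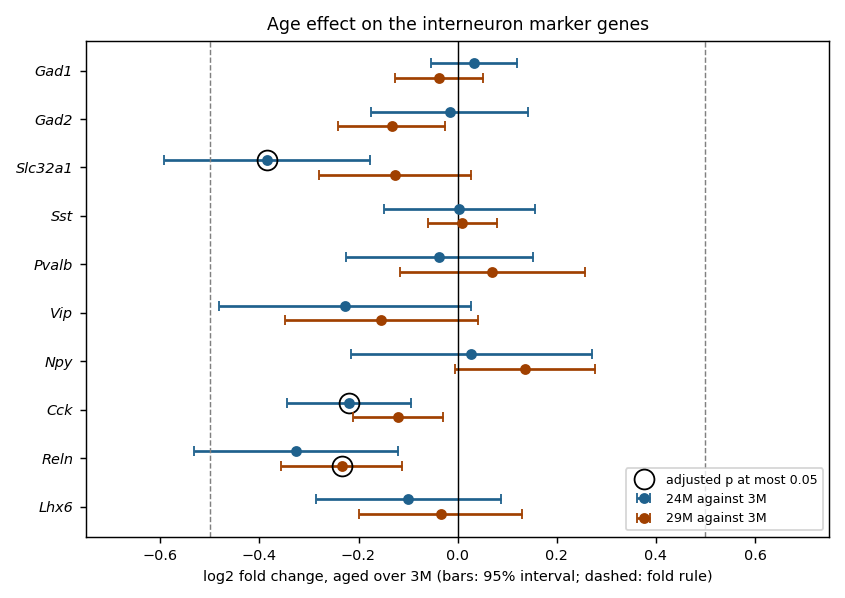
Log2 fold change of each interneuron marker gene (rows) for 24M against 3M (blue, single-end) and 29M against 3M (brown, paired-end), with 95% intervals as bars and the fold rule of 0.5 as dashed lines. Circles mark an adjusted p of at most 0.05, which are Slc32a1 and Cck at 24M and Reln at 29M, and every point estimate lies inside the dashed lines.

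Over the 10 genes, 3 had a fold change above 0 and 7 below 0 at each age. The median log2 fold change was -0.068 at 24M and -0.079 at 29M, beside -0.0032 and -0.0021 over all genes tested. In absolute size the median was 0.068 at 24M and 0.12 at 29M, beside 0.12 and 0.086 over all genes tested. The 95% interval lay wholly within the fold rule of 0.5 in either direction for 8 of 10 genes at 24M (all but Slc32a1 and Reln) and for 10 of 10 at 29M. No interneuron gene had aged libraries wholly apart from its 3M libraries at 24M, where 6.56% of all genes did. At 29M there were 5 of 10, with Gad2, Vip, Cck and Reln below and Npy above, beside 22.4% of all genes apart and 10.5% apart below.

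No interneuron gene was shown to differ between the ages in its age effect. In an edgeR fit over all 4 groups, 0 of 16055 genes passed for the difference between both effects, with 1674 at an unadjusted p under 0.05, and DESeq2 also gave 0. None of the 10 interneuron genes reached an unadjusted p under 0.05 there. Their differences ran from -0.12 for Gad2 (95% interval -0.35 to 0.11) to 0.26 for Slc32a1. Age and library type vary together in this difference and cannot be told apart.

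Set against Gad1 of the same library, Slc32a1 was also lower at 24M. This ratio reuses the Slc32a1 values given above and is not separate evidence. No share over all genes was computed for it. The log2 ratio of Slc32a1 over Gad1, on the CPM scale, was -2.19 ± 0.15 (SD, n = 5) at 3M and -2.61 ± 0.19 (SD, n = 5) at 24M. The 3M samples ranged from -2.30 to -2.01 and the 24M samples from -2.87 to -2.43, without overlap. In the paired-end libraries the ratio was -2.36 ± 0.11 (SD, n = 3) at 3M and -2.45 ± 0.022 (SD, n = 3) at 29M. The log2 ratio of Gad1 over Gad2 moved by 0.042 at 24M and by 0.091 at 29M. Ratios to the geometric mean of Gad1, Gad2 and Slc32a1 moved by 0.14 at 24M and 0.23 at 29M for Npy, by 0.13 and 0.11 for Sst, and by 0.089 and 0.17 for Pvalb. They moved by 0.020 and 0.054 for Lhx6, by -0.098 and -0.025 for Cck, by -0.11 and -0.050 for Vip, and by -0.19 and -0.14 for Reln. The denominator holds Slc32a1, so its lower level at 24M raises every one of these ratios at that age, where Sst itself moved by 0.0032. In the paired-end comparison, Gad1 (-0.038), Gad2 (-0.13) and Slc32a1 (-0.13) were all negative. The lower denominator thus raises every ratio at 29M as well, where Sst itself moved by 0.0093. These ratios compare amounts within a library on the CPM scale and were not tested.

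The 3M single-end replicate with high striatal markers was the extreme value of its group for several interneuron genes. It had the highest Gad2, Slc32a1, Pvalb and Npy of the 3M single-end libraries and the lowest Reln. Across 16 samples, the deviation from the group mean correlated with that of the summed striatal markers at r = 0.67 for Npy, 0.63 for Gad2, 0.51 for Pvalb and -0.80 for Reln. Without that library the values were 0.31, 0.38, 0.073 and -0.49. All 11 striatal markers were above 0 in all libraries, and their summed level was 310.3 to 326 CPM at 24M, while paired-end libraries had 301 to 326 CPM at 3M and 300.2 to 325 CPM at 29M. The part of this library's striatal signal in the 24M results was not tested. Those results are given here without it, where Slc32a1 was -0.33 (edgeR adjusted p = 0.0758) and Cck was -0.21 (edgeR adjusted p = 0.0867). In the fit without it, 195 genes over all and 0 of the 10 interneuron genes were called. By the adjusted p alone, 1 of the 10 passed, Reln, and the count over all genes by that rule is not given here.

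**Figure D3:**
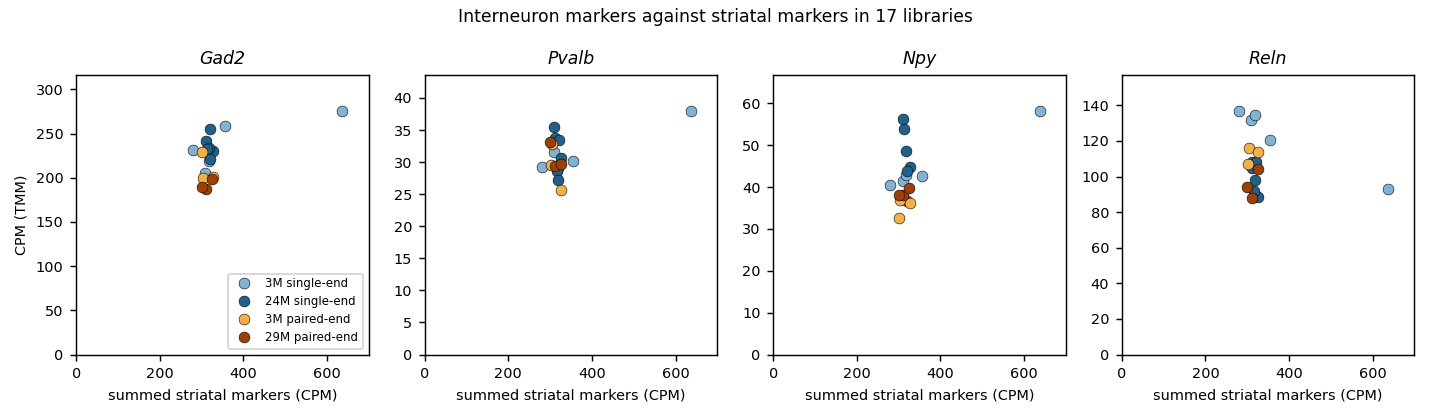
CPM of Gad2, Pvalb, Npy and Reln (y axes, from 0) against the summed CPM of 11 striatal neuron markers (x axis) in the 17 libraries, coloured by group. The single point far to the right is 3M single-end replicate 4 at 637 CPM, which is high for Gad2, Pvalb and Npy and low for Reln among the 3M single-end libraries, while all other libraries lie between 280 and 355 CPM.

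Interneuron genes varied together within groups to different degrees. Over 16 samples, with the group means removed, the highest correlations among the 10 genes were between Sst and Cck (r = 0.80), Cck and Lhx6 (0.76), Sst and Lhx6 (0.71) and Gad1 and Gad2 (0.59). The samples of an experiment share a library type, so these values are a description. Gad1 and Slc32a1 were at 0.54, whereas Sst and Slc32a1 were at 0.035. The summed choroid plexus markers were at -0.64 with Sst, -0.52 with Cck and -0.44 with Lhx6. Without 3M single-end replicate 4 these values were -0.63, -0.63 and -0.43. With the other interneuron genes they ran from -0.49 for Reln to 0.35 for Gad2. The part of choroid plexus content in the correlations of Sst, Cck and Lhx6 was not tested. Over 14898 genes, those most like Slc32a1 in this measure were Glmp (0.94), Gng4 (0.93) and Lmna (0.92). The genes most like Reln were Pald1 (0.90), Ncam1 (0.86) and Prss35 (0.86), which were at 0.79, 0.73 and 0.68 without 3M single-end replicate 4.

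For the glutamate decarboxylases, the most similar genes were Larp6 (0.81), Fam220a (0.81) and Peg10 (0.80) for Gad1 and Sorcs1 (0.90), Mex3c (0.90) and Hsd17b12 (0.87) for Gad2. For the peptide genes they were Arpc4 (0.92), Gng13 (0.91) and Tubb2a (0.89) for Sst, and Ramp1 (0.91), Rab3b (0.89) and Ogfod2 (0.89) for Cck. Npy was most like Sesn1 (0.88), Nudt3 (0.85) and Tmem128 (0.83), and Vip most like Fam213a (0.87), Ap4s1 (0.87) and Slc38a4 (0.87). The closest to Pvalb were Tcf19 (0.89), Lingo3 (0.86) and Gm16295 (0.85), and among the closest to Lhx6 were Eif3d (0.95) and Ddx49 (0.93). Each of these is among the highest of 14898 correlations over 16 samples.

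The list of peptide receptors and reelin signalling held 3 called genes among 15 tested at 24M and none at 29M. All of those called were peptide receptors. Over all genes, 1.98% were called at 24M and 1.45% at 29M. Sstr2, a somatostatin receptor, was at 11.8 to 20.3 CPM in the 5 libraries at 3M and at 6.70 to 9.96 CPM at 24M, without overlap. Its log2 fold change was -0.85 (SE 0.15, edgeR adjusted p = 0.0105), and it was called in 11 of 11 fits that left out a library. Cckbr, the cholecystokinin B receptor, was at 13.7 to 25.9 CPM at 3M and at 6.70 to 13.2 CPM at 24M, also without overlap. It fell by 0.90 on the log2 scale (SE 0.18, edgeR adjusted p = 0.0175), and its adjusted p was past 0.05 without 24M replicate 2 (0.0533). Npy2r, a neuropeptide Y receptor, was higher at 24M, at 63.6 to 81.3 CPM against 39.3 to 60.7 CPM at 3M. Its log2 fold change of 0.51 (SE 0.10, edgeR adjusted p = 0.0183) lay close to the fold rule, and it was called in 6 of 11 fits that left out a library. Without 3M replicate 4 it was 0.44 with an adjusted p of 0.0321.

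At 29M none of these receptors passed the test. Log2 fold changes were -0.11 for Sstr2, 0.071 for Cckbr and 0.12 for Npy2r, with edgeR adjusted p of 0.730, 0.841 and 0.342. Of the 17 genes in the list of receptors and reelin signalling, 15 were tested at each age, and the median log2 fold change was -0.063 at 24M and -0.034 at 29M. The reelin receptor genes Vldlr and Lrp8 and the adaptor gene Dab1 were at 0.094, -0.0063 and 0.10 at 24M and did not pass. At 29M, 0 of the 15 genes passed by edgeR or DESeq2, and 0 were at an unadjusted p under 0.05. Whether the receptor changes differed between the ages was tested over all genes, where none passed. For that difference, 3 of 15 genes of this list were at an unadjusted p under 0.05, beside 1674 of 16055 over all genes.

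**Figure D4:**
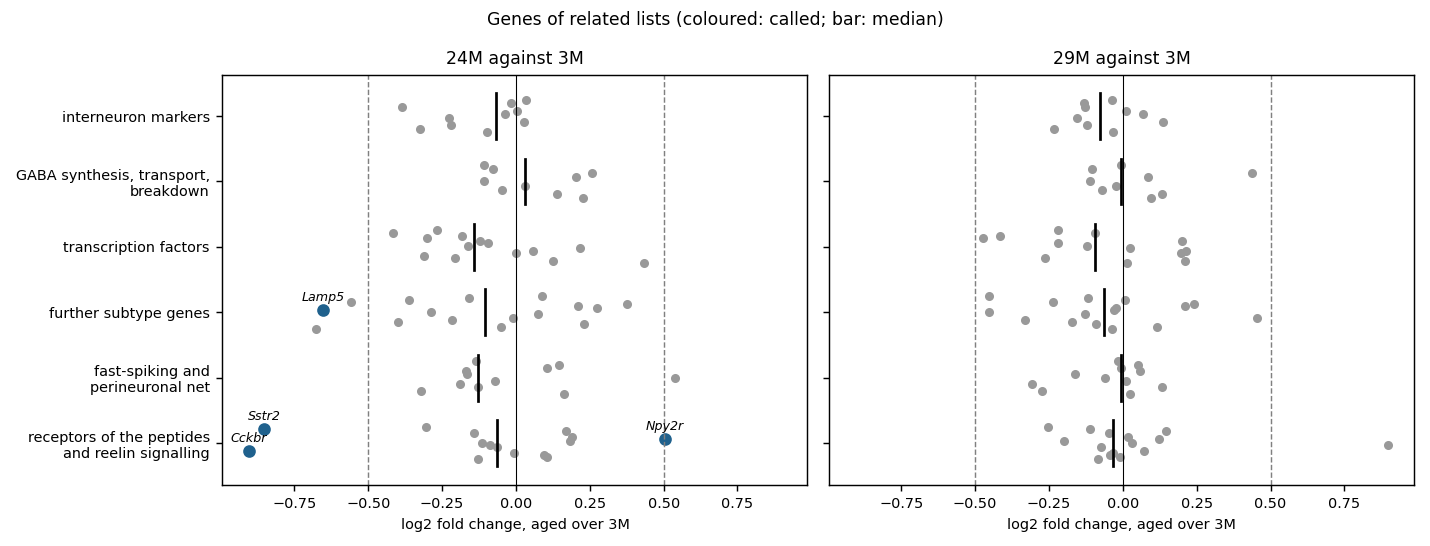
Log2 fold changes (x axis) of the 10 interneuron marker genes and of 5 lists of related genes at 24M (left) and 29M (right), 1 point a gene, with the list median as a vertical bar and the fold rule of 0.5 as dashed lines. Blue points are called genes, which are Lamp5, Sstr2, Cckbr and Npy2r at 24M, and the 29M panel holds none.

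Further subtype genes held 1 gene called by edgeR among 16 tested at 24M, with a median of -0.10. DESeq2 called 2, Lamp5 and Tac2, the neurokinin B gene, which was at -0.68 with an edgeR adjusted p of 0.0515. The gene called by both was Lamp5, a marker of neurogliaform interneurons that is also transcribed in principal neurons, at 44.5 to 97.4 CPM at 3M and 35.7 to 43.2 CPM at 24M. Its log2 fold change was -0.65 (SE 0.18, edgeR adjusted p = 0.0487), and it was called in 3 of 11 fits that left out a library. Without 3M replicate 4 it was -0.41 (edgeR adjusted p = 0.0350), under the fold rule, and in the other fits that lost it the adjusted p was 0.0561 (without 3M replicate 1) to 0.119 (without 24M replicate 2). With the 24M replicates 1 and 4 both left out, its adjusted p was 0.0810. By the adjusted p alone, Crhbp (log2 fold change 0.38) was higher at 24M and Pnoc, the prepronociceptin gene, was lower (-0.40). At 29M, 0 of 16 genes were called by edgeR or DESeq2, with a median of -0.064. There were 5 at an unadjusted p under 0.05, beside 17.35% of all genes. Ndnf, a further neurogliaform marker, fell by 0.45 on the log2 scale at 29M (edgeR adjusted p = 0.00474), and Elfn1, a synaptic organiser of Sst cells, fell by 0.33 (edgeR adjusted p = 0.0182). Tac2, Crhbp, Pnoc, Ndnf and Elfn1 were chosen after their values were seen.

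Among 11 genes of fast-spiking cells and perineuronal nets, none was called by edgeR at either age. At an unadjusted p under 0.05 there were 5 at 24M and 3 at 29M, beside 26.1% and 17.35% of all genes. DESeq2 called 1 of the 11 at 24M, Hapln1, and 0 at 29M. Hapln1 was higher in the aged group, by 0.54 on the log2 scale in edgeR (adjusted p = 0.0722), with overlapping groups. The medians were -0.13 and -0.0058, with 4 of the 11 genes above 0 at 24M and 5 at 29M. Ncan, the gene of the matrix proteoglycan neurocan, passed the adjusted p alone at both ages without overlap between groups. It fell by 0.32 on the log2 scale at 24M (257.9 to 300.3 CPM at 3M, 214 to 239.7 CPM at 24M, edgeR adjusted p = 0.0058) and by 0.27 at 29M (249.9 to 274 CPM at 3M, 214 to 218 CPM at 29M, edgeR adjusted p = 0.00188). Tnr, the tenascin R gene, fell by 0.31 at 29M (edgeR adjusted p = 0.0057) and was at -0.19 at 24M (edgeR adjusted p = 0.199).

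Of 14 interneuron transcription factors, 0 were called at 24M by edgeR or DESeq2 (median -0.14, 5 at an unadjusted p under 0.05), and 0 of 13 at 29M (median -0.094, 4 at an unadjusted p under 0.05). Over all genes, 26.1% at 24M and 17.35% at 29M were under that p. Dlx1, a homeodomain factor of GABAergic neurons, fell by 0.27 on the log2 scale at 24M (34.9 to 41.6 CPM at 3M, 30.6 to 35.2 CPM at 24M, edgeR adjusted p = 0.0326) and was at -0.22 at 29M (edgeR adjusted p = 0.175). Nr2f2, a factor of caudally born interneurons, was at 0.43 at 24M (edgeR adjusted p = 0.0645) and at 0.013 at 29M. Of 9 genes of GABA transport, breakdown and precursor supply, 0 were called at either age by edgeR or DESeq2, with medians of 0.030 and -0.0073 and with 3 and 4 at an unadjusted p under 0.05. Glul, the glutamine synthetase gene of astrocytes, was at 0.14 and 0.13, neither past the threshold.

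Markers of other cell types moved beside these results in places. The summed level of 10 neocortical neuron markers was 317 to 367 CPM at 3M and 291 to 299 CPM at 24M, without overlap, and 267 to 300.2 against 259 to 289.9 CPM in the paired-end experiment. Of these, edgeR called 2 of 10 at 24M, among them Cux2 (-0.53), and 0 at 29M, while DESeq2 called 3 and 0. Cux2 was called in 6 of 11 fits that left out a library. Without 3M replicate 4 it was -0.45 (edgeR adjusted p = 0.0583). The highest 3M sum, 367 CPM, was that of single-end replicate 4. Lmo4 alone was at 148 to 162 CPM at 3M and 153 to 169 CPM at 24M (log2 fold change 0.047). The lower neocortical level at 24M lies beside the lower Slc32a1, Cck, Sstr2, Cckbr and Lamp5, and its part in them was not tested. Across samples, deviations from the group mean correlated with those of the neocortical sum at r = 0.14 for Slc32a1 and 0.29 for Cck. Without 3M single-end replicate 4 these were -0.090 and 0.22. Among the 11 striatal markers 0 were called at 24M by edgeR and 1, Rgs9, by DESeq2, with a median of -0.58. There were 4 at an unadjusted p under 0.05, beside 26.1% of all genes at 24M. At 29M, 1 of the 11 was called by both tools. The 9 principal neuron markers held no called gene by edgeR or DESeq2 at either age, with medians of -0.034 at 24M and -0.057 at 29M. At an unadjusted p under 0.05 there were 4 at 24M, with Nrgn (-0.23) and Tbr1 (-0.35) lower and Neurod6 (0.26) and Prox1 (0.23) higher, and 0 at 29M. Of these, Nrgn passed the adjusted p alone (0.0340, edgeR). Neurod6 and Prox1 were chosen after their values were seen.

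Cajal-Retzius markers were low, 22.6 to 41.5 CPM over 5 genes at 3M and 21.1 to 35.9 CPM at 24M, and 23.7 to 47.1 against 22.6 to 25 CPM in the paired-end experiment. None was called (4 tested at 24M, 3 at 29M, 0 at an unadjusted p under 0.05, DESeq2 also 0). Their median log2 fold change was -0.15 at 24M, with 1 of 4 above 0, and -0.44 at 29M, with 0 of 3 above 0. At 29M, Ebf3 was at -0.89 (edgeR adjusted p = 0.301), Cacng5 at -0.44 (edgeR adjusted p = 0.313) and Trp73 at -0.20 (edgeR adjusted p = 0.508). These values lie beside the lower Reln at 29M. The 47.1 CPM belonged to 3M paired-end replicate 2, and the other libraries of that group were at 23.7 and 25.7 CPM. Replicate 2 had the lowest Reln of that group, 107 CPM against 116 and 114 CPM. Across 16 samples, deviations from the group mean of Reln and of the summed Cajal-Retzius markers correlated at r = -0.34. Without 3M single-end replicate 4 the value was -0.28. Cacng5 weighs heavily in this sum, at 145 to 525 counts per library, against 75 to 214 for Trp73 and 14 to 112 for Ebf3. Trp73, the defining marker of these cells, was present in every library at 6.43 to 10.6 CPM, and Lhx5 was at 0 in 24M replicates 1 and 4. The part of these cells in the Reln values was not tested.

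The 6 astrocyte markers had medians of 0.052 at 24M and 0.046 at 29M. Gfap, the gene of an astrocyte filament protein, was the called gene of this list, at 0.66 and 0.80, and was called in 11 of 11 and 6 of 6 fits that left out a library. The other 5 ranged from -0.26 to 0.40 at 24M and from -0.086 to 0.074 at 29M, and of these Aqp4 passed the adjusted p alone at 24M (0.0279, edgeR). The 6 microglia markers had a median of 0.35 at both ages, with 6 of 6 above 0. P2ry12 was called at 24M (0.52, edgeR adjusted p = 0.0342), in 5 of 11 fits that left out a library, with an adjusted p of up to 0.0952 (without 24M replicate 2), and of 0.0683 with the 24M replicates 1 and 4 both left out. Tmem119 was called at 29M (0.51, edgeR adjusted p = 0.0183) and in 3 of 6 fits, and in the other 3 its adjusted p was 0.0759 to 0.0954. Summed microglia markers were 305 to 349 CPM at 3M and 379 to 403 CPM at 24M, and 296 to 306 against 379.6 to 393 CPM in the paired-end experiment.

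The other marker lists held no called gene by edgeR at either age. Summed oligodendrocyte markers were 4208 to 7306 CPM at 3M and 6058 to 7141 CPM at 24M, and 4697 to 6566 against 5879 to 6542 CPM in the paired-end experiment. Thalamic markers were 104 to 172 CPM at 3M and 117.5 to 201 CPM at 24M, and 123 to 149 against 121 to 132 CPM. Hypothalamic markers were at 4.41 to 15.5 CPM over all libraries, 3 of 10 were tested at each age, and Hcrt was at 0 in 9 libraries. Choroid plexus markers ranged from 2034 to 8425 CPM at 3M and 4426 to 7773 CPM at 24M in the single-end experiment. In the paired-end experiment they were 3462 to 6325 against 4092 to 6252 CPM. Slc17a6, a vesicular glutamate transporter gene of the thalamic list, passed the adjusted p alone at 29M, at 28.7 to 30.3 CPM at 3M and 18.4 to 24.6 CPM at 29M (log2 fold change -0.46, edgeR adjusted p = 0.0140). At an unadjusted p under 0.05 there were 3 hypothalamic and 1 thalamic gene at 24M, and 3 oligodendrocyte and 2 thalamic genes at 29M. Over all genes these shares were 26.1% at 24M and 17.35% at 29M. DESeq2 called 1 gene of these lists, Cartpt at 24M.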

How the data were processed

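Counts per gene were deposited by the authors without normalization, as whole reads counted with HTSeq (intersection non-empty) after alignment with STAR 2.3.0 to GRCm38.p2, per the submitters' processing notes and the methods of the study. The sources used here do not say whether counting used strand. Lines naming no gene stayed out of library sizes and tests. Of uniquely placed reads, those without a feature were 11.22% to 13.77% (3M single-end), 13.19% to 17.29% (24M), 12.92% to 14.63% (3M paired-end) and 13.43% to 18.18% (29M) per library. Names came from GENCODE M21 for 36602 of 38355 identifiers.

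Each aged group was tested against the 3M group of its own experiment with edgeR 4.0.16 in R 4.3.3 (quasi-likelihood test, TMM scaling, default expression filter) and Benjamini-Hochberg adjustment over all genes tested. A called gene had adjusted p ≤ 0.05 and log2 fold change ≥ 0.5 in either direction. Replicates 1 and 4 of the 24M group entered as 1 sample, their rounded mean, because they differed by less than counting noise. The difference between both effects was tested in 1 fit over all 4 groups. CPM values are TMM-scaled, and RPKM divides by the length of the merged exons. Depth was 9213474 to 28438296 counts on genes per library. The fits were tested on simulated data with 100 genes changed at an absolute log2 fold change of 2 and 100 at 1. For 24M against 3M, 100 and 98 were recovered with 4 false calls among 15527 genes, for 29M against 3M 100 and 100 with 12 among 14963, and for the difference between ages 100 and 93 with 6 among 15779. Smaller changes were not simulated, so these numbers do not give the recovery at the effect sizes of the interneuron genes.

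Alternatives were DESeq2 1.42.0, its size factors in edgeR, no filter, a filter of at least 1 CPM, all 4 groups in 1 fit, the 24M pair kept apart or left out, the replicate number as a block, no fold threshold, and each library left out. The interneuron genes and the lists were chosen with earlier results of these data known. The genes named are the 10 interneuron genes, every called gene of a list or else the 2 with the smallest p, and for each interneuron gene the 3 with the most similar pattern. Promoter sequences are from RefSeq (GRCm38.p6), where all 10 genes matched. A few genes that this rule names are not reported here. Protein sequences, splicing, editing and arrays were not analysed here.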

Additional observations from a re-analysis of the deposited data

Results flagged for a closer look

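In the 3M and 24M single-end groups, of 5 samples each, the gap of the highest or lowest sample to its neighbour was divided by the group's range. This ratio was set against Dixon's critical value for each interneuron gene and each marker sum. The paired-end groups, of 3 samples each, were not checked. Of 40 groups tested, 4 held a sample past that value, where chance gives about 1 in 20, or 2, for independent groups. The same libraries enter all of these groups, so they are not independent. In 3M single-end replicate 4, Npy had a ratio of 0.869 (58.1 CPM against 40.5 to 42.8 CPM in the others) and Pvalb a ratio of 0.722 (38.0 CPM against 29.1 to 31.6 CPM). The same library had a ratio of 0.79 for the summed striatal markers (637 CPM against 280 to 355 CPM). In 24M replicate 6 the summed thalamic markers had a ratio of 0.747 (201 CPM against 117.5 to 139 CPM in the other 24M libraries). That library had the highest Gad1 (424 CPM), Gad2 (255.5 CPM) and Slc32a1 (78.9 CPM) and the lowest Npy (36.7 CPM) of the 24M libraries.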

How the results depend on the processing

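None of the 10 interneuron genes was called under any alternative that kept the fold threshold, and without it 2 were at 24M and 1 at 29M. By the adjusted p alone, the count at 24M (2) was 0 with the 24M pair left out and 0 to 3 on leaving out each library. At 29M (1) it was 2 with no filter, 0 with all 4 groups in 1 fit and 0 to 1 on leaving out each library. Over all genes, calls at 24M (310) were 163 with the pair left out, 518 with all 4 groups, 875 with no fold threshold and 119 (without 24M replicate 2) to 568 (without 3M replicate 5) on leaving out each library. Calls at 29M (219) were 441 with no filter, 86 with all 4 groups, 451 with no fold threshold and 124 to 221 on leaving out each library, and for the difference between ages 0 to 57. The cause of these shifts was not tested.

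At 24M, Slc32a1 (0.0854) and Cck (0.0533) had adjusted p above 0.05 with the pair left out. Reln came under it with the pair apart (0.0417), with DESeq2 (0.0241), with no filter (0.0344) and with all 4 groups (0.0207). At 29M, Reln had 0.518 with all 4 groups, and Gad2 0.0267 with no filter.

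Signs turned only in fold changes near 0. With the pair left out, Sst was -0.045 and Npy -0.047 at 24M. With no filter Sst was -0.0041. Its difference between ages was -0.032 with the pair apart and -0.0022 with DESeq2. On leaving out each library, 24M values ranged from -0.064 to 0.042 for Gad2, -0.045 to 0.051 for Sst, -0.072 to 0.036 for Pvalb and -0.0093 to 0.14 for Npy. At 29M they ranged from -0.0001 to 0.023 for Sst, -0.013 to 0.15 for Pvalb, -0.099 to 0.017 for Lhx6, -0.091 to 0.016 for Lamp5, -0.092 to 0.18 for Cckbr and -0.14 to 0.034 for Cux2. The difference between ages ranged from -0.045 to 0.042 for Sst, -0.0031 to 0.14 for Npy and -0.0090 to 0.11 for Lhx6.

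Samples that share a replicate number did not deviate together (correlations of -0.16 to 0.057), beside -0.18 to 0.23 for samples with other numbers. The numbers thus gave no sign of pairing in this measure, which cannot exclude a pairing or batch with small effects. With the replicate block, the count by the adjusted p alone was 0 of 10 at 24M (1 with the pair apart) and 0 at 29M. By the called rule, 83 genes over all and 0 interneuron genes passed at 24M. Gad2 was at 0.016 and Pvalb at 0.0053 in that fit. Depth limits genes near 1 CPM, and the lowest count of an interneuron gene in a library was 143.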
